A study of Mus musculus with 10 samples.

Results

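The chemokine receptor CXCR3 and its ligands CXCL9, CXCL10 and CXCL11 were examined in mouse tumors as 4 genes (Cxcr3, Cxcl9, Cxcl10 and Cxcl11), taken from a table of 17737 genes by their symbols in GENCODE mouse release 21. The tumors were subcutaneous grafts of the mouse melanoma line B16-F10 in C57BL/6 mice, collected on day 11 for bulk RNA sequencing. In 5 tumors the implanted cells overexpressed IL-18 carrying the D69A substitution, an alanine in place of an aspartate (D69A tumors, numbered 1 to 5). In the other 5 they overexpressed wild-type IL-18 (WT tumors, numbered 2 to 6), so both groups carried an introduced IL-18 and no tumor without one was analysed here. The labels do not state whether each tumor came from its own mouse or whether the cell lines were clones, so p-values here speak only to the spread from tumor to tumor.

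CXCR3 is a G protein-coupled receptor that activated T cells and natural killer (NK) cells carry and follow up a gradient of its ligands. The ligands are small CXC chemokines that macrophages, dendritic cells, stromal cells and tumor cells release after exposure to interferon-gamma, and type I interferons and NF-kappa B signals also raise some of them. IL-18, released as an active cytokine after cleavage of its precursor, drives interferon-gamma production by NK and T cells, and so acts upstream of the ligand genes.

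Total counts were 34400949 to 37578722 per tumor in D69A and 25904345 to 37556163 in WT, and levels are given as CPM, the count scaled to library size, after TMM scaling of library sizes. Il18 itself averaged 27.3 ± 2.41 CPM in D69A and 29.6 ± 2.56 CPM in WT tumors (SD, n = 5 each), and the groups were not distinguished by edgeR's quasi-likelihood test (adjusted p = 0.266). The sequence of the introduced IL-18 is not given in the sources used here, so whether its reads are counted under Il18 is not known. Any that are cannot be told apart from reads of the endogenous gene, in either form. Melanocyte markers were abundant in every tumor, 6 of 9 being higher in D69A, at a summed 24700 to 31611 CPM in D69A and 16793 to 20815 CPM in WT. Of all genes tested, 18.8% were higher in D69A. A list of 10 skeletal muscle markers, from tissue that can lie beside a tumor under the skin, varied within both groups, from 16.1 to 565.5 CPM summed in D69A and 16.5 to 1604 CPM in WT, and was highest in D69A tumor 1 and WT tumors 3 and 4. None of these 10 markers passed the threshold in the fit reported here, but 2 passed as lower in D69A without D69A tumor 1 and all 10 with the tumor number as a block. Values of the 4 genes with those 3 tumors left out are given as well.

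The ligand genes lie side by side on chromosome 5, within 44.1 kb and all on the minus strand (mm10, GENCODE release 21), from Cxcl9 at chr5:92321347-92328079 through Cxcl10 at chr5:92346638-92348889 to Cxcl11 at chr5:92359544-92365485. Cxcr3 lies on the X chromosome at chrX:101731535-101734269, also on the minus strand. The 250 bases before the RefSeq start sites of Cxcl9 (chr5:92328080-92328329) and Cxcl10 (chr5:92348890-92349139) are shown because these ligands gave the largest differences among the 4 genes. They are taken from RefSeq on build GRCm38.p6, minus strand, 5′ to 3′. Capitals mark matches to an interferon-stimulated response element (ISRE, searched as GAAA, any 2 bases and GAAA again) and to the consensus of the kappa B site bound by NF-kappa B, both searched on either strand.
Cxcl9: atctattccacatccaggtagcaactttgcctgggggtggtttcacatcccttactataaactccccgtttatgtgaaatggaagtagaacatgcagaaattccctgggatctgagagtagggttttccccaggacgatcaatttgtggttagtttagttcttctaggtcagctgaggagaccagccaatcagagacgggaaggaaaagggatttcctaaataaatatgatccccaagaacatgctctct
Cxcl10: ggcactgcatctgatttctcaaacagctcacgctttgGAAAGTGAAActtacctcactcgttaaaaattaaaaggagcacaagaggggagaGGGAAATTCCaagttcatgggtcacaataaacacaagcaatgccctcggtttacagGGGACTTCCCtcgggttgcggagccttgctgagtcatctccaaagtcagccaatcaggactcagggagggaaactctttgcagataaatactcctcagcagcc
The Cxcl10 sequence held 1 ISRE match, 213 to 204 bases before the start site, and 2 kappa B matches, at 159 to 150 and 103 to 94 bases. The Cxcl9 sequence and the 250 bases before the RefSeq start site of Cxcr3 (chrX:101734148-101734397) held no match to either motif. That Cxcr3 window lies partly within the gene span given above, as RefSeq and GENCODE place the start differently. None of the 3 sequences held the gamma-activated sequence searched as TTCNNNGAA. Only exact matches to these patterns were sought, so sites that depart from them are missed. A sequence without a match may therefore still hold such sites. Over 32851 mouse promoters of the same length, 2.98% held an ISRE match, 3.90% a kappa B match and 7.02% a TTCNNNGAA match.

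Cxcl11 differs from its neighbors in the reference strain. C57BL/6 mice are known to carry a frameshift in this gene and to make no functional CXCL11 protein, and the annotation lists it as a polymorphic pseudogene. The first coding stretch (chr5:92363155-92363214, minus strand) is shown for both annotated transcripts. Cxcl11-202 follows the C57BL/6 genome, with the 2 inserted bases in capitals (chr5:92363177-92363178), and Cxcl11-201 skips them to hold the reading frame.
Cxcl11-201: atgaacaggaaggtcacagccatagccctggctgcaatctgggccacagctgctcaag
Cxcl11-202: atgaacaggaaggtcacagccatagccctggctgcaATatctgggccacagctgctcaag
Read from the start codon, a stop codon followed after 36 codons in Cxcl11-202 and after 99 codons in Cxcl11-201. The implanted line also derives from C57BL/6, so the Cxcl11 counts below stand for transcript and not for a working chemokine.

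All 4 genes were tested, and all 4 were lower in D69A tumors, by between 1.32-fold and 5.9-fold. Cxcl9 and Cxcl10, the ligand genes that make protein in this strain, differed most, Cxcr3 by 2.04-fold and Cxcl11 least, with a call that rested on single tumors. In the comparison of D69A with WT, 43.5% of the 13798 genes tested passed an adjusted p of 0.05, 24.7% being lower and 18.8% higher in D69A, so passing the threshold was common in this comparison. At least 2-fold lower past the threshold were 3 of the 4, against 15.8% of all genes tested. Over all genes the median log2 fold change was 0.00244.

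Cxcl9, whose product draws activated T and NK cells and depends on interferon-gamma more than the other ligands do, had the widest gap. It stood at 23.2, 13.4, 6.55, 14.7 and 8.09 CPM in D69A tumors 1 to 5, against 35.9, 120.7, 80.5, 79.8 and 71.9 CPM in WT tumors 2 to 6. The groups did not overlap, as was so for 17.4% of all genes in this direction, and the nearest tumors were D69A 1 and WT 2, each at the edge of its group. The means were 13.2 ± 6.56 CPM in D69A and 77.8 ± 30.2 CPM in WT (SD, n = 5 each), a log2 fold change of -2.56 with an SE of 0.38 and a 95% confidence interval of -3.39 to -1.73 (adjusted p = 0.000795, Benjamini-Hochberg, from edgeR's quasi-likelihood test). Of all genes tested, 3.23% had a more negative log2 fold change than Cxcl9. Its coefficient of variation was 49.8% in D69A and 38.8% in WT, the highest of the 4 genes in both groups. In bulk tumors, fewer cells that express a gene and less of its RNA per cell cannot be told apart, for the ligands or for the receptor.

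Cxcl10, the ligand gene that type I interferons and NF-kappa B raise besides interferon-gamma, also had a wide gap. Its levels were 48.0, 32.8, 19.2, 37.1 and 28.7 CPM in D69A tumors 1 to 5, against 89.7, 178.5, 141.8, 95.7 and 109.9 CPM in WT tumors 2 to 6. Here too the groups did not overlap, D69A 1 being the highest of its group, D69A 3 the lowest of all 10 tumors and WT 3 the highest. The means were 33.2 ± 10.6 CPM in D69A and 123.1 ± 37.0 CPM in WT (SD, n = 5 each), a log2 fold change of -1.89 (SE 0.25, 95% confidence interval -2.45 to -1.34, adjusted p = 0.000575 by edgeR's quasi-likelihood test). A share of 5.91% of its annotated exon bases lies opposite Art3, a gene on the plus strand that was higher in D69A tumors. How the authors' counting used strand is not given in the sources used here, so reads from that stretch cannot be told apart.

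Cxcl11, the ligand gene with the frameshift, differed least. It stood at 28.5, 32.0, 21.1, 27.0 and 25.1 CPM in D69A tumors 1 to 5, against 32.0, 40.6, 43.8, 28.8 and 31.1 CPM in WT tumors 2 to 6. The groups overlapped, since D69A 2 lay above WT 5 and WT 6 and level with WT 2. The means were 26.7 ± 4.03 CPM in D69A and 35.3 ± 6.56 CPM in WT (SD, n = 5 each), and the log2 fold change of -0.40 (SE 0.14, 95% confidence interval -0.71 to -0.09) passed narrowly (edgeR's quasi-likelihood test, adjusted p = 0.0379). The call was lost when D69A 3 was left out (-0.28 on the log2 scale, adjusted p = 0.118), without D69A 4 or 5 (adjusted p = 0.0737 and 0.0832), without WT 3 or 4 (adjusted p = 0.0967 and 0.0979) and without the 3 muscle-high tumors together, where it was -0.22 (adjusted p = 0.256). Opposite 41.7% of its annotated exon bases lies Gm2673, a processed pseudogene not analysed here, and reads from that stretch cannot be told apart either.

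Cxcr3, the receptor gene, stood between Cxcl10 and Cxcl11 in the size of its difference. It stood at 7.62, 6.04, 4.60, 6.69 and 4.15 CPM in D69A tumors 1 to 5, against 7.29, 16.3, 11.3, 14.9 and 9.71 CPM in WT tumors 2 to 6. D69A 1 lay just above WT 2, and the other 4 tumors of each group did not overlap. The means were 5.82 ± 1.44 CPM in D69A and 11.9 ± 3.68 CPM in WT (SD, n = 5 each), a log2 fold change of -1.03 (SE 0.24, 95% confidence interval -1.56 to -0.50, adjusted p = 0.00582 by edgeR's quasi-likelihood test).

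**Figure D1:**
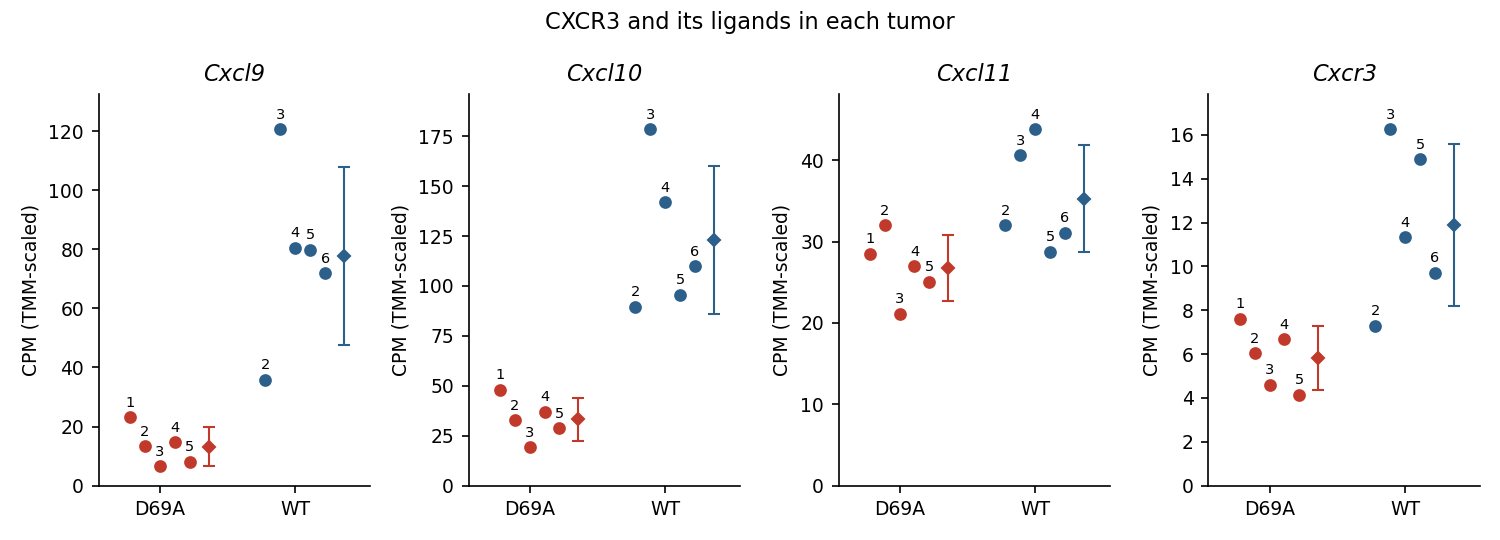
Level of each gene in TMM-scaled CPM (y axis, from 0) in each of the 5 D69A tumors (red, left) and 5 WT tumors (blue, right), numbered as in the labels; diamonds and bars are the mean and SD. Cxcl9 (6.55 to 23.2 against 35.9 to 120.7 CPM) and Cxcl10 (19.2 to 48.0 against 89.7 to 178.5 CPM) separate the groups, while Cxcl11 and Cxcr3 overlap.

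Without D69A tumor 1 and WT tumors 3 and 4, the log2 fold changes were -2.55 for Cxcl9 (adjusted p = 0.00218), -1.74 for Cxcl10 (adjusted p = 0.00149) and -0.98 for Cxcr3 (adjusted p = 0.0271, edgeR's quasi-likelihood test for all 3). These stayed past the threshold with 4 D69A and 3 WT tumors. Against a fold of 1.5 in place of no change, Cxcl9 and Cxcl10 passed and Cxcr3 did not (adjusted p = 0.0845).

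Levels of different genes were compared per kilobase of annotated exon. Cxcl10 was highest in both groups, at 14.7 ± 4.71 CPM per kilobase in D69A and 54.7 ± 16.4 in WT (SD, n = 5 each). The middle of the order differed between the groups. In D69A tumors Cxcl11 came next, at 7.05 ± 1.06 CPM per kilobase, and Cxcl9 after it at 4.37 ± 2.17, whereas in WT tumors Cxcl9 came next, at 25.8 ± 10, and Cxcl11 after it at 9.29 ± 1.73. Cxcr3 was lowest in both, at 3.36 ± 0.83 CPM per kilobase in D69A and 6.87 ± 2.13 in WT. Some neighbors in these orders did not differ beyond their spread. In D69A tumors the ranges of Cxcl11 (5.57 to 8.43), Cxcl9 (2.17 to 7.68) and Cxcr3 (2.40 to 4.40) overlapped from one to the next, and in WT tumors so did those of Cxcl10 (39.8 to 79.3) and Cxcl9 (11.9 to 40.0), and those of Cxcl11 (7.58 to 11.5) and Cxcr3 (4.21 to 9.39). The order of means was the same when only the first coding transcript of each gene gave the length. Cxcl10 (30.3 CPM per kilobase in D69A, 112.5 in WT) and Cxcl11 (16.9 in D69A, 22.3 in WT) then stood higher. With this length the WT ranges of Cxcl9 (12.4 to 41.8) and Cxcl11 (18.2 to 27.7) overlapped. In D69A tumors those of Cxcl9 (2.27 to 8.02) and Cxcl11 (13.4 to 20.2) did not.

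Whether the 4 genes differed by unequal amounts was tested with the log2 ratio of CPM between pairs of them within each tumor, which does not depend on library scaling and, not being corrected for gene length, does not say which gene of a pair is the more abundant. All 6 pairs passed a two-sided exact permutation test with adjustment over the 6 pairs, and 3 had groups without overlap. The 6 ratios are built from the same 4 genes and follow in part from each other, so they are not independent results. The ratio of Cxcl9 to Cxcl11 shifted most, with a log2 value of -1.15 ± 0.57 in D69A and 1.06 ± 0.57 in WT (SD, n = 5 each; difference -2.21, exact p = 0.00794, adjusted p = 0.0159). This exact p is the smallest that 5 against 5 tumors allow. Cxcl9 relative to Cxcr3 had a log2 ratio of 1.06 ± 0.39 in D69A and 2.66 ± 0.28 in WT (difference -1.60, exact permutation, adjusted p = 0.0159). Cxcl10 relative to Cxcl11 was 0.26 ± 0.35 in D69A and 1.77 ± 0.24 in WT (difference -1.51, exact permutation, adjusted p = 0.0159). Cxcl11, the least changed gene, thus made up a larger part of the ligand reads in D69A tumors.

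The other 3 pairs overlapped between the groups. The log2 ratio of Cxcl10 to Cxcr3 was 2.47 ± 0.27 in D69A and 3.37 ± 0.40 in WT (difference -0.90, exact permutation, adjusted p = 0.0238), with WT 5 at 2.68 inside the D69A range. That of Cxcl9 to Cxcl10 was -1.41 ± 0.29 in D69A and -0.71 ± 0.39 in WT (difference -0.69, exact permutation, adjusted p = 0.0286). By group means Cxcl9 was thus lower relative to Cxcl10 in D69A tumors, with WT 2 at -1.32 inside the D69A range. The call on this ratio was lost without WT 3 or WT 5 (adjusted p = 0.0571 each) and without WT 6 (adjusted p = 0.0556). Cxcl11 to Cxcr3 ran the other way, at 2.21 ± 0.28 in D69A and 1.60 ± 0.48 in WT (difference 0.61, exact permutation, adjusted p = 0.0397), and was lost without any one of D69A 2, 3, 4 and 5 and WT 3, 5 and 6 (adjusted p = 0.0556 to 0.0952).

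**Figure D2:**
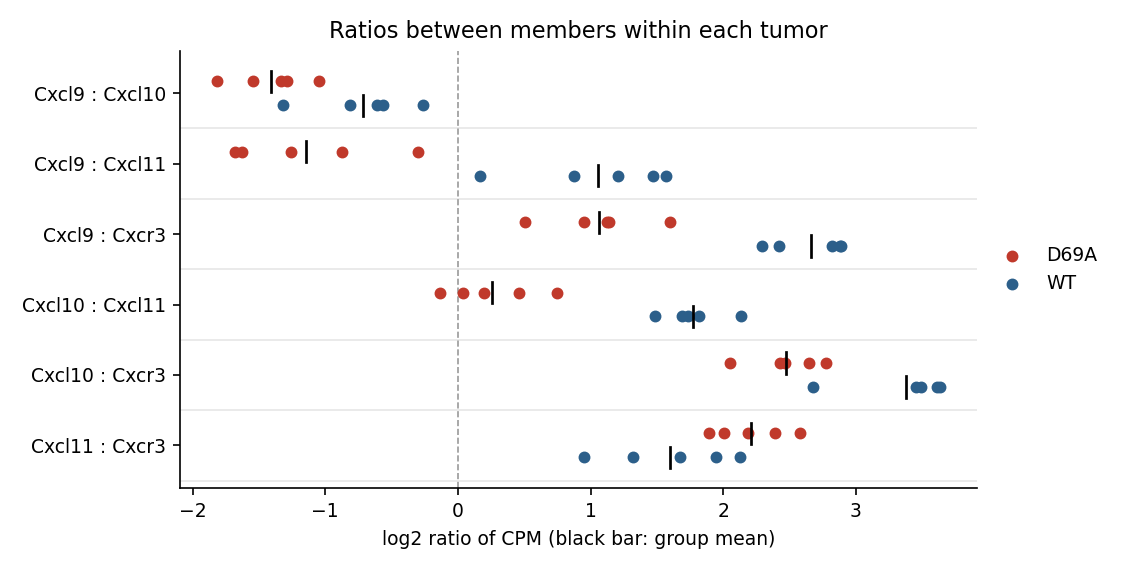
Log2 ratio of CPM between 2 genes within a tumor (x axis) for the 6 pairs; points are tumors, D69A red above WT blue, and black bars the group means. The groups are farthest apart for Cxcl9 to Cxcl11, at -1.68 to -0.30 in D69A and 0.17 to 1.57 in WT.

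Genes that bring the ligands on were lower for the most part. Of 16 tested members of a list of interferon-gamma, interferon and TNF signalling genes upstream of the ligands, 12 fell in D69A tumors, 1 rose and 3 did not pass (median -0.74 on the log2 scale, against 0.00244 over all genes, of which 24.7% were lower and 18.8% higher). Ifng, which encodes interferon-gamma, averaged 0.37 CPM in D69A and 2.08 CPM in WT (log2 fold change -2.47). Tnf, which activates NF-kappa B, averaged 0.81 CPM in D69A and 5.02 CPM in WT (log2 fold change -2.63). Transcription factors that act on the ligand promoters followed the same direction: Stat2 (log2 fold change -1.97), Irf1 (-1.73) and Irf9 (-1.39) all fell (edgeR's quasi-likelihood test, adjusted p = 0.000506 or below). Genes for receptors and kinases had smaller log2 fold changes. The interferon-gamma receptor subunit gene Ifngr1 fell (-0.87), and Ifnar1, a type I interferon receptor subunit gene, rose (0.27). The 3 that did not pass were the other subunit gene Ifngr2 (-0.0018), the kinase gene Jak1 (-0.33) and the NF-kappa B subunit gene Nfkb1 (-0.14). Ifnb1 had 0 to 2 counts per tumor in D69A and 0 to 6 in WT and was not tested.

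The listed targets of interferon-gamma other than the ligands were lower. All 16 of a list of interferon-gamma response genes, Irf1 again among them, fell, against 24.7% of all genes tested. Their median log2 fold change was -2.28, and their summed level was 410.4 to 1025 CPM in D69A and 1751 to 3727 CPM in WT. Cxcl9 (-2.56) was more negative than this median, Cxcl10 (-1.89) and Cxcl11 (-0.40) less so. Set against the mean log2 level of these genes within each tumor, Cxcl11 stood at 0.08 ± 0.42 in D69A and -1.84 ± 0.40 in WT (SD, n = 5 each; difference 1.92, two-sided exact permutation test, adjusted p = 0.0159 over 12 relations to lists), with no overlap. Cxcl10 relative to the list was 0.34 ± 0.17 in D69A and -0.07 ± 0.28 in WT (difference 0.41, exact permutation, adjusted p = 0.0238), a call lost without any one of D69A 2, 3, 4 and 5 (adjusted p = 0.0529 to 0.0595). For Cxcl9 the values were -1.07 ± 0.25 in D69A and -0.78 ± 0.20 in WT, and the difference of -0.29 did not pass (exact permutation, adjusted p = 0.105), although it did without WT 2 (adjusted p = 0.0423).

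Cell types that make or carry these molecules were followed by their markers. The counts of markers below stand beside a share of 24.7% of all genes tested that were lower in D69A. All 10 pan-leukocyte markers fell, at a summed 172.9 to 379.3 CPM in D69A and 526.3 to 1336 CPM in WT (median log2 fold change -2.08). Of 11 macrophage markers 9 fell (median -1.72), Cd68 and Mertk not passing at 0.11 and -0.05. The list also holds Ly6c2 and Ccr2, known from monocytes. Its sum was 425.6 to 643.7 CPM in D69A and 684.4 to 1538 CPM in WT. Cd68 had the highest mean of the list in both groups, at 206.8 CPM in D69A and 191.5 CPM in WT. All 9 dendritic cell markers fell (53.5 to 131.9 CPM in D69A, 170.4 to 590.1 CPM in WT, median -2.54). So did 8 of 8 endothelial markers (151.3 to 205.4 CPM in D69A, 233.0 to 308.5 CPM in WT, median -0.80) and 7 of 8 fibroblast markers (401.0 to 1420 CPM in D69A, 2356 to 6031 CPM in WT, median -2.34). None of these markers was at 0 in all tumors, and the part that cell content plays in the ligand differences was not tested.

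The ligand genes were then set against the mean log2 level of these markers within each tumor. The macrophage mean includes Cd68 and Mertk, which did not pass, and the relations without them were not computed. Cxcl9 was lower relative to the macrophage list, at -1.19 ± 0.48 in D69A and -0.07 ± 0.38 in WT (SD, n = 5 each; log2 difference -1.13, exact permutation, adjusted p = 0.0159), with no overlap between the groups. Relative to the pan-leukocyte list Cxcl9 was -0.54 ± 0.42 in D69A and 0.04 ± 0.35 in WT (difference -0.58, exact permutation, adjusted p = 0.0741), which did not pass but did without WT 5 (adjusted p = 0.0476). For Cxcl10 neither difference passed, at 0.11 for pan-leukocyte (exact permutation, adjusted p = 0.762) and -0.43 for macrophage markers (adjusted p = 0.165, but 0.019 without WT 5). Cxcl11 was higher relative to both, by 1.63 for pan-leukocyte (exact permutation, adjusted p = 0.0159) and 1.08 for macrophage markers (adjusted p = 0.0238, lost without any one of D69A 2, 3, 4 and 5 at 0.0529 to 0.0595).

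The receptor was set against the lymphocytes known to carry it. All 12 T cell markers fell (24.7% of all genes tested did), at a summed 8.79 to 30.4 CPM in D69A and 41.8 to 126.8 CPM in WT (median log2 fold change -2.71). All 10 NK cell markers fell too, at 7.39 to 22.6 CPM in D69A and 46.4 to 112.2 CPM in WT (median -2.81). Cxcr3 thus differed by less than these markers did. Its log2 level relative to the T cell list was 1.75, 2.77, 2.71, 2.88 and 2.92 in D69A tumors 1 to 5, against 1.24, 0.84, 0.71, 0.62 and 1.18 in WT tumors 2 to 6, so every D69A tumor stood above every WT tumor (difference 1.69, exact permutation, adjusted p = 0.0159). Relative to the NK cell list it was 2.83 ± 0.43 in D69A and 1.09 ± 0.10 in WT (SD, n = 5 each; difference 1.74, exact permutation, adjusted p = 0.0159), and relative to the pan-leukocyte list -1.60 ± 0.32 in D69A and -2.62 ± 0.15 in WT (difference 1.02, exact permutation, adjusted p = 0.0159), again with no overlap. The ratio to NK cell markers was tight in WT tumors, from 0.98 to 1.21 on the log2 scale. Which cells the Cxcr3 transcripts came from was not measured, and T and NK cell content was not separated from transcripts per cell.

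**Figure D3:**
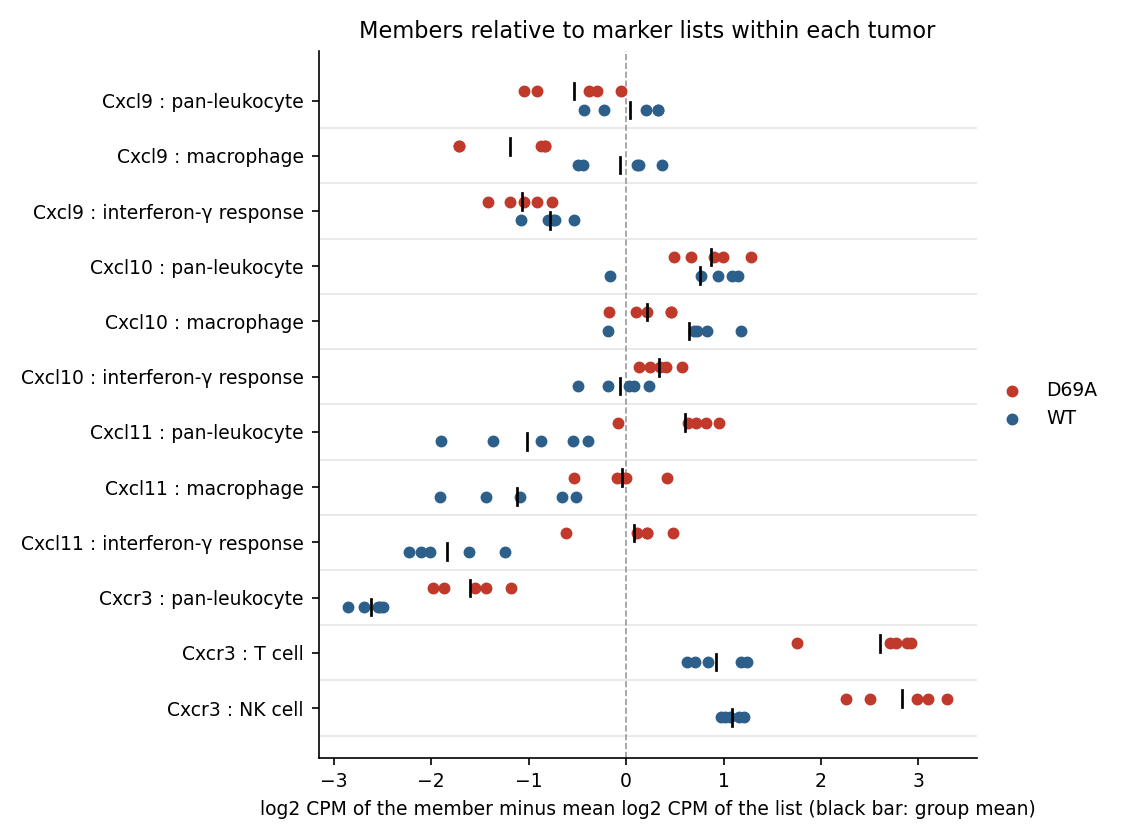
Log2 CPM of a gene minus the mean log2 CPM of a marker list within a tumor (x axis) for 12 relations; points are tumors, D69A red above WT blue, and black bars the group means. By group means Cxcr3 and Cxcl11 lie to the right in D69A for their 3 lists, Cxcl9 to the left (passing for macrophage markers), and Cxcl10 shifts by 0.11 for pan-leukocyte markers.

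Regulators upstream of Cxcr3 in T and NK cells all fell, 6 of 6, against 24.7% of all genes tested. Their median log2 fold change was -2.32, and their summed level was 5.29 to 13.6 CPM in D69A and 24.5 to 50.8 CPM in WT. Tbx21, which encodes the Th1 transcription factor T-bet, a known activator of Cxcr3, averaged 0.44 CPM in D69A and 3.39 CPM in WT (log2 fold change -2.94). Eomes, its relative in NK and memory T cells (-2.21), Stat4, which carries the IL-12 signal (-2.59), and Runx3 (-2.0) fell as well (edgeR's quasi-likelihood test, adjusted p = 0.000852 or below). Cxcr3, at -1.03, had a smaller log2 fold change than any of the 6, whose smallest was -1.87 for Il12rb1.

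A list of 4 genes held molecules that bind or trim ligands of CXCR3, and Pf4, itself a chemokine. All 4 fell, against 24.7% of all genes tested. Their median log2 fold change was -2.28. Dpp4, a surface protease that trims the ligands and weakens their action on CXCR3, averaged 4.83 CPM in D69A and 28.5 CPM in WT (log2 fold change -2.56). Ackr3, an atypical receptor that takes up CXCL11 and CXCL12 without G protein signalling, also fell (-2.0), as did Ackr1, a chemokine-binding receptor of venular endothelium (-2.85). Pf4, a platelet chemokine that binds a CXCR3 form in humans, fell less (-1.06).

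Downstream of the receptor, 11 of 15 signalling genes fell, 2 rose and 2 did not pass (median -0.93 on the log2 scale). Over all genes tested, 24.7% were lower and 18.8% higher. The lowest p-values belonged to the protein kinase C gene Prkcb (-2.42), the phospholipase gene Plcb2 (-2.41) and the GTPase gene Rac2 (-2.19), all known from blood cells, and to Arrb2 (-0.94), which encodes an arrestin that uncouples such receptors. Of the genes for G protein subunits, Gnai3 and Gnb2 did not pass (0.07 and 0.02) and Gnb1 rose (0.15), as did the phospholipase gene Plcb3 (0.27).

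Other chemokine system genes were lower for the most part, against 24.7% of all genes tested. Of 8 tested genes for other CXC ligands, Pf4 included, 6 fell and 2 did not pass, with a median of -1.40. Cxcl12, a stromal ligand of CXCR4 (-2.41), and Cxcl16, the ligand of CXCR6 (-2.05), fell, while Cxcl2 and Cxcl14 did not pass (-0.68 and -0.88). Of 18 tested chemokine receptor genes 16 fell and 2, Ccr10 and Cx3cr1, did not pass (0.06 and -0.77), with a median of -1.96. Cxcr3, at -1.03, was less negative than this median. Ccr7, which guides T and dendritic cells to lymph nodes (-2.78), and Ccr2 of monocytes (-1.98) both fell. Some genes, among them Ackr1, Ackr3, Ccr2, Ccr7 and Eomes, are shared between lists, so the counts of different lists are not independent.

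**Figure D4:**
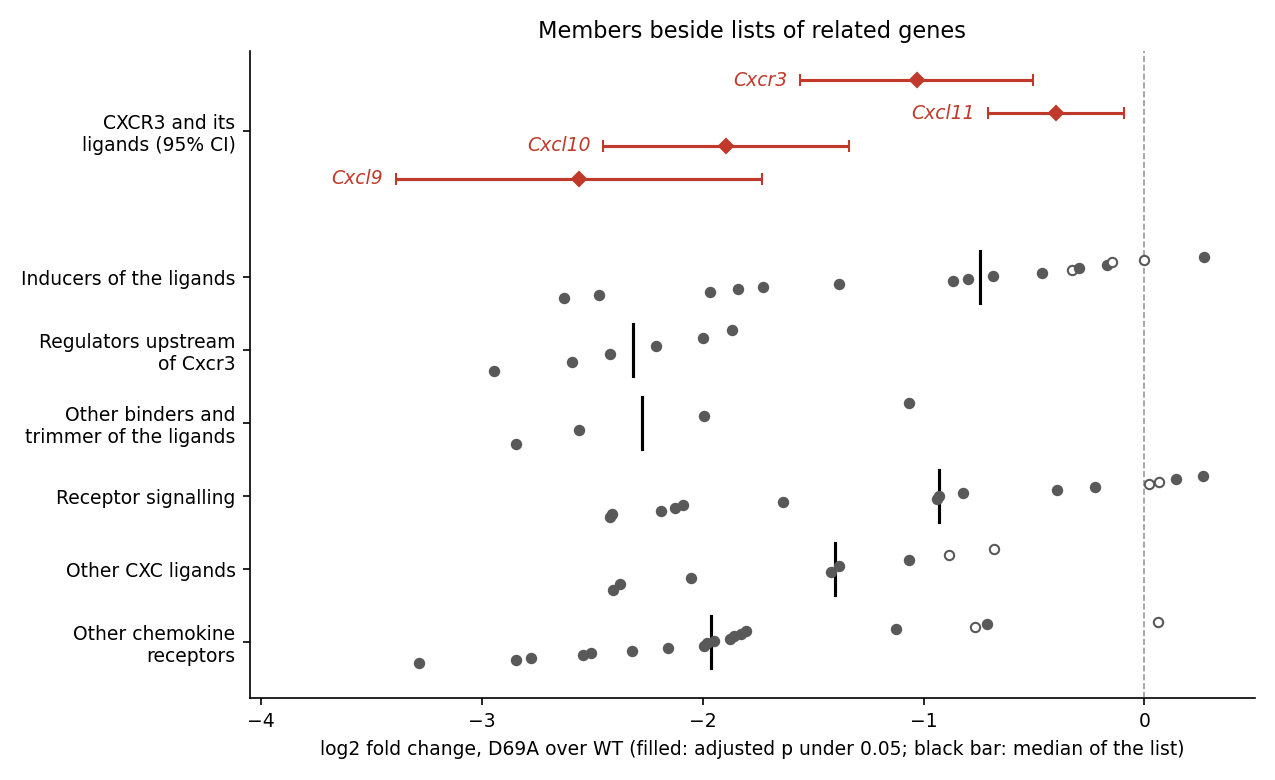
Log2 fold change of D69A over WT (x axis) for the 4 genes with 95% confidence intervals (red) and for the tested genes of 6 lists (gray, filled where adjusted p was under 0.05), with each list's median as a black bar. Cxcl9 (-2.56) and Cxcl10 (-1.89) lie among the upstream and receptor regulators, while Cxcl11 (-0.40) lies to the right of all 6 medians.

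Of the other protein-coding genes within 250 kb of the cluster, 9 were tested and U90926, Fam47e and Ccdc158 were not. Of the 9, 3 were lower, 3 higher and 3 did not pass, where 24.7% of all tested genes were lower and 18.8% higher. Naaa, which encodes a lysosomal amidase, stood at 81.8, 47.4, 36.5, 38.8 and 37.4 CPM in D69A tumors 1 to 5, against 100.4, 355, 190.9, 313.6 and 148.7 CPM in WT tumors 2 to 6 (log2 fold change -2.20, SE 0.36, edgeR's quasi-likelihood test, adjusted p = 0.00111). Art3, whose span on the plus strand contains Cxcl10 and Cxcl11, ran the other way, at 83.7, 87.9, 71.7, 80.1 and 80.5 CPM in D69A, against 64.9, 40.7, 57.7, 32.0 and 51.0 CPM in WT (log2 fold change 0.71, SE 0.16, adjusted p = 0.00528 by the same test). The groups did not overlap for either gene. Ppef2 (-2.86, with a mean of 0.17 CPM in D69A) and Stbd1 (-1.49) were lower, Nup54 (0.64) and Scarb2 (0.26) higher, and Sdad1, G3bp2 and Uso1 did not pass (0.07, -0.04 and -0.03). Near Cxcr3, Taf1 was higher (0.40), Ogt (-0.50) and Nhsl2 (-1.62) were lower, and Gm4779 and 8030474K03Rik did not pass (adjusted p = 0.0604 and 0.0576).

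**Figure D5:**
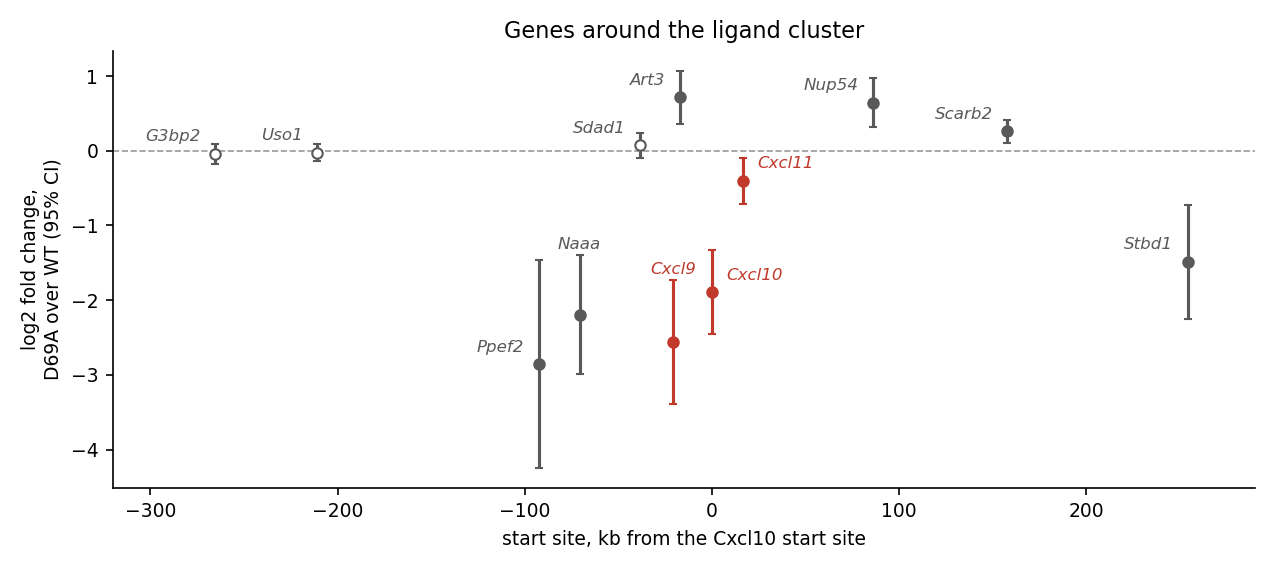
Log2 fold change of D69A over WT with 95% confidence interval (y axis) for tested protein-coding genes around the ligand cluster, placed by the distance of their start site from that of Cxcl10 in kilobases (x axis); filled points passed an adjusted p of 0.05, red points are the ligand genes. Values along the region run from -2.86 for Ppef2 to 0.71 for Art3, the gene whose span holds Cxcl10.

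The genes most like each of the 4 across the 10 tumors were found by the root mean square (RMS) difference of log2 CPM after each gene was centred on its own mean, a measure that reads the difference between groups as well as the variation within them. Cxcl9 came closest to Gbp6 (RMS 0.162), an interferon-induced GTPase gene, Slamf8 (0.195), a macrophage surface receptor gene, and Tgtp2 (0.201), another interferon-induced GTPase gene that can share reads with its near-identical copy Tgtp1, among 12215 genes with a median RMS of 1.46. Cxcl10 came closest to Irgm1 (0.19), Ube2l6 (0.197), which encodes an enzyme of ISG15 conjugation, and Irf1 (0.211), against a median of 1.06. All 6 of these genes were lower in D69A tumors (log2 fold changes -2.68 to -1.73), against 24.7% of all genes tested. As the measure picks genes with a like difference between groups, this direction follows from the selection and is not a separate result.

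Cxcl11 and Cxcr3 had other company. Cxcl11 came closest to Tchp (RMS 0.0926), Zfp202 (0.11) and Tex9 (0.112), against a median of 0.377, and of these only Tchp passed the threshold (log2 fold change -0.37, adjusted p = 0.0287, edgeR's quasi-likelihood test), a call that leaving out single tumors ended (adjusted p up to 0.101). Cxcr3 came closest to Mmrn2 (0.128), an endothelial matrix gene, Trem2 (0.138), a receptor gene of macrophages, and Hspa12b (0.149), against a median of 0.677. Among the 4 genes themselves, Cxcl9 and Cxcl10 (0.464) and Cxcl11 and Cxcr3 (0.463) were the nearest pairs and Cxcl9 and Cxcl11 (1.22) the farthest.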

How the data were processed

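The deposited table holds whole-number read counts per Ensembl gene for 10 tumors without scaling. The submitters' processing notes name fastp, HISAT, Bowtie and RSEM and the mm10 build, but what each step did, with which version, annotation or strand setting, is not given in the sources used here. As RSEM estimates counts, the deposited values may be rounded. Symbols and coordinates are those of GENCODE mouse release 21 (17670 identifiers matched, 67 not). Tumors of a group differed by more than sampling noise (chi-square per degree of freedom at least 13.9), and each was 1 replicate. A count of 3, taken as a floor, was 0.0775 to 0.115 CPM, and floors cover counting error only.

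Genes passing edgeR's filterByExpr (13798, all 4 genes of interest among them) were fitted with TMM scaling and the quasi-likelihood test (edgeR 4.0.16, R 4.3.3), with Benjamini-Hochberg adjustment over all genes and a threshold of 0.05. SEs came from the F statistic. Ratios within a tumor used log2 CPM (prior count 2) and exact two-sided permutation over all 252 assignments (smallest p 0.00794). Levels between genes were divided by the union of annotated exons. Scripts were tested on simulated data. The 4 genes, the 16 gene lists and the tests were chosen with earlier results of these data known. Genes are named by a rule: the 4 genes, up to 4 per list with the smallest p, list members that did not pass or went the other way, coding genes within 250 kb, and the 3 nearest patterns with a mean of at least 1 CPM. Ifng, Tnf, Ifngr1, Il12rb1, Cd68 and Mertk are named besides for their known roles or as list members at the edge of a count. Values of 2 listed genes are not reported here. Alternatives were DESeq2 1.42.0, limma-voom (limma 3.58.1), RLE, upper quartile and no scaling, other filters, a fold of 1.5, a replicate block, each tumor left out, the 3 tumors high in muscle markers left out, other prior counts, list medians and other transcript lengths. The first coding transcript as length was chosen after the annotation was seen.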

Additional observations from a re-analysis of the deposited data

Results flagged for a closer look

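Within each group of 5 tumors, a tumor lying far from the other 4 was looked for in the levels, ratios and list sums of the CXCR3 system. Of 76 such groups 9 (11.8%) held one, where chance gives about 1 in 20, and the quantities overlap in the genes they use.

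D69A tumor 1 stood apart in 7 of the 9. Its log2 level of Cxcr3 relative to T cell markers was 1.75, against 2.71 to 2.92 in the other D69A tumors, nearest to the WT values. Its summed T cell markers were 30.4 CPM (8.79 to 13.8 in the other 4), its pan-leukocyte markers 379.3 CPM (172.9 to 211.4) and its macrophage markers 643.7 CPM (425.6 to 463.4). Its dendritic cell markers were 131.9 CPM (53.5 to 67.9), its chemokine receptors other than Cxcr3 136.3 CPM (61.6 to 78.6) and its skeletal muscle markers 565.5 CPM (16.1 to 118.7). Cxcl9 and Cxcl10 were also highest in this tumor among the D69A group, at 23.2 and 48.0 CPM, and both remained past the threshold without it.

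WT tumor 5 stood apart in the other 2. Its log2 ratio of Cxcl10 to Cxcr3 was 2.68, against 3.45 to 3.64 in the other WT tumors, and its Cxcl10 relative to pan-leukocyte markers was -0.17, against 0.77 to 1.15.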

How the results depend on the processing

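Cxcl9 and Cxcl10 remained lower and past the threshold under all 20 alternatives of the fit across all genes (log2 fold changes -2.85 to -2.34 and -2.07 to -1.71). Cxcr3 did so (-1.17 to -0.88) except against a fold of 1.5 (-1.03, adjusted p = 0.0845). Cxcl11 kept its direction and lost its call against a fold of 1.5 (-0.40), without the 3 tumors highest in muscle markers (-0.22, adjusted p = 0.256), and in fits without single tumors, which ranged from -0.47 to -0.28. Deviations of same-numbered tumors correlated over genes at r = 0.18, 0.26 and 0.18 for numbers 2, 4 and 5 and at -0.51 for number 3, so the numbers are not known to pair the tumors. The replicate block, under which 5464 genes passed, gave Cxcl11 -0.46 (adjusted p = 0.0739), and all 10 skeletal muscle markers then passed as lower, against 0 without the block and 2 without D69A tumor 1. Genes passing numbered 1860 against a fold of 1.5 (1800 lower, 60 higher), and those higher 1727 without the 3 muscle-high tumors. With the first coding transcript as length, Cxcl10 stood at 30.3 CPM per kilobase in D69A and 112.5 in WT, and Cxcl11 at 16.9 in D69A and 22.3 in WT. Of the 6 ratios between members 4 to 6 passed without single tumors, and of the 12 relations to lists 6 to 10. With the list median in place of its mean, Cxcl9 relative to pan-leukocyte markers passed (adjusted p = 0.0272) and Cxcl10 relative to interferon-gamma response genes did not (0.0529). Ratios without the 3 muscle-high tumors or in 4 number pairs have no test, since the smallest p would be 0.0571 and 0.125. No result reversed. Beside the results above on the 4 genes and on counts of calls, for other genes, lists and single ratios a call was lost in 42 and gained in 14 instances. In 2178 a call was kept, a list count stayed within 1.5-fold, or an untested value moved by less than the spread between tumors. In 6 instances a list count or untested value moved further. Depth was not limiting for the 4 genes (153 counts or more in every tumor), unlike Ifnb1.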
